A study of Homo sapiens and Mus musculus with 36 samples.

Results

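Atazanavir and nefazodone, both without bile acids, were compared in HepaRG cells on 6 of the 36 arrays of a series on cholestatic liver injury. The 6 were chosen by their sample titles alone: 3 arrays of cultures given atazanavir at 60 µM and 3 of cultures given nefazodone at 30 µM, each for 72 h. The other arrays held 12 mouse livers and 18 further HepaRG cultures, among them control cultures with neither drug nor bile acids and cultures given each drug together with bile acids as a mixture at 50 times concentration, called the mix here. HepaRG is a human hepatoma line, bought here as frozen, already differentiated cells, which forms hepatocyte-like and biliary-like cells in culture. It is a single line, and no other hepatocyte source is analysed here. The doses were not matched, so the identity of the drug and its dose cannot be told apart in any value below. The series text names 3 HepaRG batches but the labels do not say which array came from which batch, so p-values measure the spread between these arrays, and 3 arrays a group limit the precision.

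Atazanavir is an inhibitor of the HIV protease, and nefazodone is an antidepressant that was withdrawn in many countries after cases of liver failure. Both are associated with impaired bile flow in patients, and the labels call both cholestatic drugs. A hepatocyte under stress can slow protein synthesis through phosphorylation of the initiation factor eIF2, which raises the transcription factors ATF4 and CHOP (the integrated stress response), and can raise the folding capacity of the endoplasmic reticulum (the unfolded protein response). It can also leave or re-enter the cell cycle and lower the genes of its specialised work, such as plasma protein secretion, bile acid synthesis and drug oxidation.

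RNA was measured on Affymetrix 3′ expression arrays as log2 levels normalised by the authors. Across genes, arrays correlated at 0.9965 to 0.9976 within atazanavir, at 0.9949 to 0.9975 within nefazodone and at 0.9656 to 0.9685 between the drugs. Such correlations cannot show that no array stood apart. The third nefazodone array lay away from the rest of its group for several genes below. Leaving it out gave 1966 instead of 1849 genes that differed at least 2-fold between the drugs. The drug difference then changed with the mix for 1534 instead of 2209 genes. The gap between 3′ and 5′ control probe sets, a measure of RNA integrity, was 0.55 to 0.61 with atazanavir and 0.61 to 0.64 with nefazodone for GAPDH, and 1.54 to 1.67 against 1.27 to 1.44 for ACTB. The ACTB ranges did not overlap, and their part in the results was not tested. Of the markers of hepatocyte-like cells, 7 of 8 had a named probe set, and their mean log2 level was 10.04 to 10.45 on the atazanavir arrays, 10.74 to 11.27 on the nefazodone arrays and 12.96 to 13.25 on the control arrays. Among 6 markers of biliary-like cells, EPCAM and CFTR were in the dimmest 1 in 3 genes in each of these groups. This dim range, also called background below, covers mean log2 levels up to 4.27. No detection limit was measured, so signal in this range may not be told from noise. The mean of these 6 markers was 6.17 to 6.21 with atazanavir, 6.69 to 6.80 with nefazodone and 6.24 to 6.37 in control. It leans on SPP1, which differed by −2.98 (atazanavir minus nefazodone, log2), while SOX9 differed by −1.04 and KRT19 by 1.01. Over a wider list of 18 biliary and ductular markers the mean was 6.27 with atazanavir, 6.20 to 6.28 with nefazodone and 6.36 to 6.41 in control. In bulk RNA, fewer cells of a type and less RNA per cell cannot be told apart.

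Of 19775 genes tested, 7882 (39.9%) differed between the drugs at an adjusted p under 0.05 in limma's moderated test. They were split evenly, with 3901 (19.7%) higher with atazanavir and 3981 (20.1%) higher with nefazodone. Centring each array on its own median moved this split to 3233 and 5101, and the median difference over all genes from −0.011 to −0.101. At 2-fold or more, 1051 genes (5.31%) were higher with atazanavir and 798 (4.04%) higher with nefazodone. At 4-fold or more the counts were 288 and 131. The 3 arrays of atazanavir all lay above the 3 of nefazodone for 4739 genes (24%), and all below for 4926 (24.9%). Against the control arrays, 7000 genes (35.4%) differed with atazanavir, 4390 higher (22.2%) and 2610 lower (13.2%). With nefazodone 9006 (45.5%) differed from control, 4939 higher (25%) and 4067 lower (20.6%). Both sets of drug values are measured against the same 3 control arrays and are given side by side for that reason. The shares of 19.7% and 20.1% are the background for every list count between the drugs without the mix below. All signed differences between the drugs below are atazanavir minus nefazodone on the log2 scale, with the standard error (SE) from limma.

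**Figure D1:**
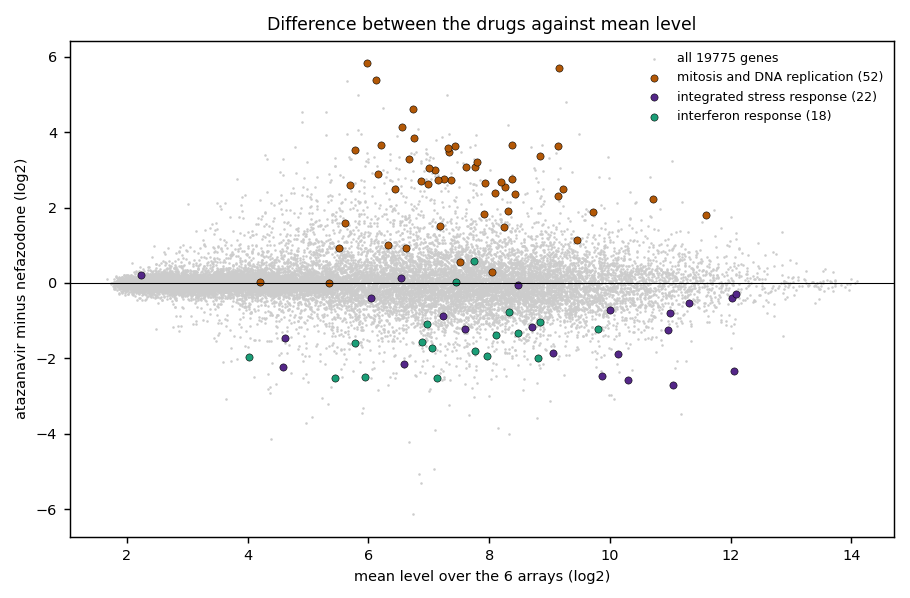
Difference between the drugs (atazanavir minus nefazodone, log2, vertical axis) against the mean log2 level over the 6 arrays (horizontal axis), with 1 grey point per gene tested and the members of 4 gene lists in colour. Genes of mitosis and DNA replication lie above 0, up to 5.83 for UHRF1, and most genes of the integrated stress response and the interferon response lie below it.

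Genes of cell division separated the drugs most widely. Among 26 measured genes of mitosis and chromosome segregation, 24 were higher with atazanavir and none was higher with nefazodone, with a median difference of 2.82. CCNB2 and UBE2C were the other two and did not pass the test. Among 26 genes of DNA replication and the G1/S step, 25 were higher with atazanavir, with a median of 2.35, and CCND1 did not pass. Against a background of 19.7% of genes higher with atazanavir, these are 92.3% and 96.2% of the lists. RRM2, the regulatory subunit of the ribonucleotide reductase that supplies deoxynucleotides, read 11.96, 12.09 and 11.97 with atazanavir and 6.20, 6.38 and 6.32 with nefazodone, and 11.08, 11.54 and 11.36 in control. The atazanavir arrays lay slightly above control and the nefazodone arrays far below both, a 52.3-fold difference (5.71 ± 0.13, SE, adjusted p = 4.76e-18). UHRF1, which keeps DNA methylation through replication, read 8.77, 9.10 and 8.84 with atazanavir and 3.23, 2.84 and 3.15 with nefazodone, against 7.25, 8.08 and 7.82 in control. With nefazodone it lay in the dim range, so its 56.8-fold difference (5.83 ± 0.16, adjusted p = 1.46e-16) depends on the background there. KIF11, the kinesin that separates the spindle poles, read 8.66, 8.67 and 8.58 with atazanavir and 4.50, 4.52 and 4.44 with nefazodone and 7.50, 7.89 and 7.46 in control, in the same order of groups.

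The 2 drugs stood on opposite sides of control for most of these genes. With atazanavir, 18 of the 26 mitosis genes and 24 of the 26 replication genes rose against control, by medians of 0.75 and 0.98. With nefazodone, 23 and 22 fell, by medians of −2.18 and −1.37, and 1 replication gene rose. E2F8, a transcription factor of the E2F family, was 41.5-fold higher with atazanavir than with nefazodone, standing 1.26 above control with the former and changing by −4.12 with the latter. GINS2, a subunit of the replicative helicase complex, differed by 3.85 ± 0.17 on its brightest probe set. Of its 2 other probe sets, which are dimmer, neither showed the difference at that size (−0.15 and 0.67). KIF20A, a kinesin of cytokinesis, NUSAP1, which bundles spindle microtubules, and KIF23, another cytokinesis kinesin, were 24.4-, 12.7- and 12.6-fold higher with atazanavir. MKI67, the proliferation antigen Ki-67, was 5.66-fold higher, at a mean of 7.69 ± 0.069 (SD, n = 3) with atazanavir, 5.19 ± 0.12 with nefazodone and 7.27 ± 0.21 in control. Its rise over control with atazanavir did not pass the test (0.42, adjusted p = 0.0549).

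Outside these lists, 5 of the 12 genes with the largest excess with atazanavir also belong to chromosome replication or the nucleus. SPC25, a kinetochore subunit, differed by 5.35, PCLAF, a PCNA-binding factor, by 4.81, HELLS, a chromatin helicase, by 4.64, MCM10, a replication initiation factor, by 4.55, and LMNB1, a nuclear lamina protein, by 4.98. Each had an adjusted p of at most 2.88e-14. The 4 dimmer probe sets of HELLS gave 3.47, 2.90, 2.03 and, at background, 0.54.

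**Figure D2:**
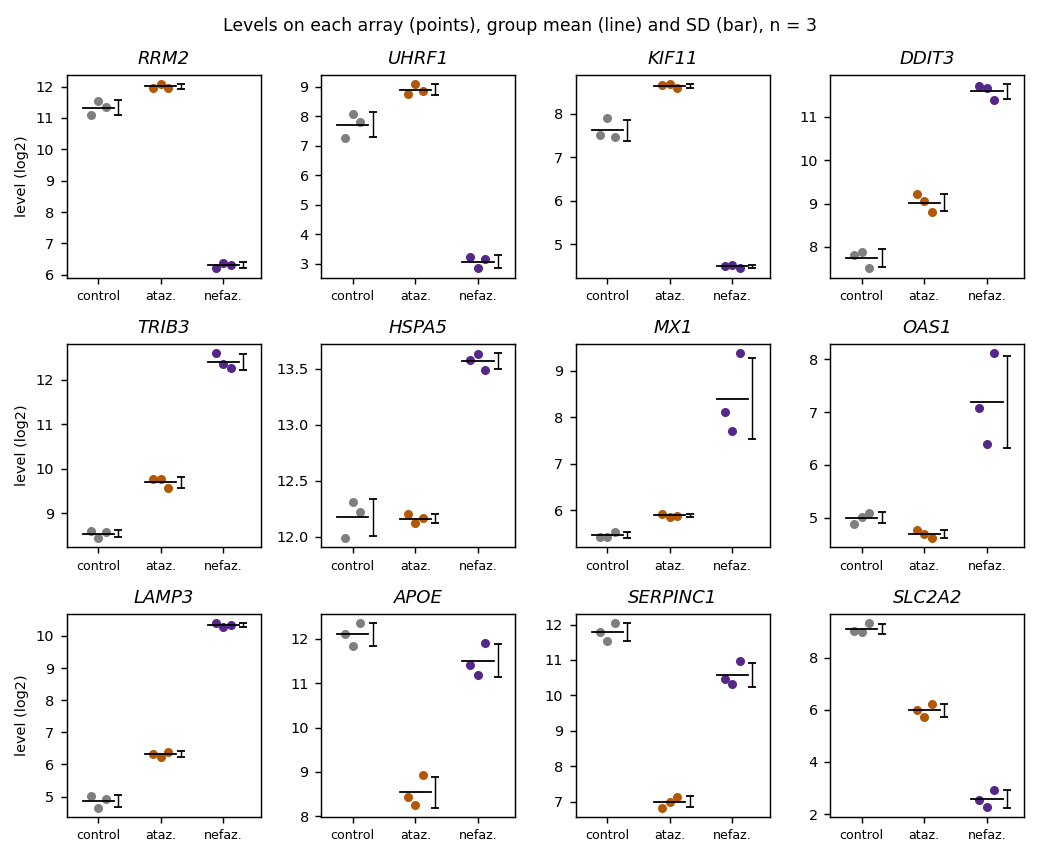
Log2 level (vertical axis, a scale of its own in each panel) of 12 genes on the 3 control, 3 atazanavir and 3 nefazodone arrays. Points are arrays, lines are group means and bars are SD. The arrays of the 2 drugs do not overlap for any of the 12 genes, and the nefazodone arrays of MX1 and OAS1 are the most widely spread.

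The promoters of the lists that moved together were searched in the 250 bases before each gene's start (RefSeq, GRCh38.p14, both strands), and a few stretches that hold a match are shown, chosen as examples from genes whose values are described. Of the genes tested, 15384 had a promoter sequence. Each element was searched in all of these lists, and shares are printed for some pairs of list and element only. The E2F element, searched as TTTNNCGC, was found in 11 of 21 promoters of the replication list (52.4%) and in 7.46% of all. In the mitosis list it was found in 2 of 21 (9.52%), and in the aminoacyl-tRNA synthetases described below in 3 of 14 (21.4%). The stretches of UHRF1 (chr19:4909359-4909500, plus strand) and GINS2 (chr16:85688955-85689015, minus strand) are written 5′ to 3′ with the element in capitals. A match is a description of letters and not a shown binding site.
UHRF1: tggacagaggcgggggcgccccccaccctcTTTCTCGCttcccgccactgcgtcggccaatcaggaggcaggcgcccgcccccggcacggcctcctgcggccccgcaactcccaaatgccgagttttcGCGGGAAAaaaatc
GINS2: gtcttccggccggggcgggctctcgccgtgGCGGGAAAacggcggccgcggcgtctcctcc

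Most genes of the integrated stress response were higher with nefazodone. Of 22 measured genes, 19 were higher with nefazodone and none with atazanavir, 86.4% of the list against 20.1% of all genes, with a median difference of −1.19. ATF5, VLDLR and JDP2 did not pass. DDIT3, which encodes CHOP, read 9.21, 9.06 and 8.80 with atazanavir and 11.72, 11.66 and 11.39 with nefazodone, and 7.82, 7.89 and 7.50 in control. The nefazodone arrays were highest, the atazanavir arrays intermediate and the control arrays lowest, without overlap. The drugs differed by 5.93-fold (−2.57 ± 0.13, adjusted p = 7.92e-13), while each drug also stood above control, by 1.29 with atazanavir and 3.86 with nefazodone. TRIB3, a pseudokinase induced by CHOP, read 9.77, 9.78 and 9.56 with atazanavir and 12.59, 12.36 and 12.25 with nefazodone, against 8.61, 8.45 and 8.59 in control. It kept the same order of groups and differed by 6.5-fold (−2.70 ± 0.098, adjusted p = 4.43e-15). ATF3, a stress transcription factor, was 5.55-fold higher with nefazodone and stood 2.42 and 4.89 above control. A second probe set gave −2.45, and one at background −0.39.

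Secreted stress factors followed. GDF15, a circulating signal of cell stress that acts on appetite, had a mean of 10.88 ± 0.31 (SD, n = 3) with atazanavir, 13.22 ± 0.21 with nefazodone and 7.92 ± 0.12 in control, a 5.07-fold difference between the drugs (adjusted p = 2.32e-11). Its dimmer probe sets gave −0.71 and −0.64. FGF21, a hepatokine of fasting and stress, had means of 3.48 with atazanavir and 3.37 in control, both in the dim range, and of 5.70 with nefazodone. It rose with nefazodone (2.33, adjusted p = 1.57e-12) and did not pass the test with atazanavir (0.11, adjusted p = 0.57). Over the list, 16 of 22 genes rose and 1 fell against control with atazanavir, with a median of 0.62, and 19 rose and 2 fell with nefazodone, with a median of 1.77.

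Most aminoacyl-tRNA synthetases, which charge transfer RNA, rose with both drugs. Of 17 aminoacyl-tRNA synthetases, 12 were higher with nefazodone and none with atazanavir, with a median of −0.44. FARSB, HARS1, IARS1, KARS1 and RARS1 did not pass. Against control, 16 rose with atazanavir and 15 with nefazodone. YARS1, the tyrosyl enzyme, differed by −1.48 ± 0.064, SARS1, the seryl enzyme, by −1.31 ± 0.08, and WARS1, the tryptophanyl enzyme, by −1.17 ± 0.071. The ATF4 targets of amino acid supply were mixed, with 9 of 21 higher with nefazodone, 4 higher with atazanavir (PHGDH, ALDH18A1, SLC38A2 and SLC1A5) 8 that did not pass and a median of −0.24. Against control, 9 of the 21 rose with atazanavir and 13 with nefazodone. CTH, which makes cysteine from cystathionine, read 8.68, 8.63 and 8.96 with atazanavir and 10.80, 10.82 and 10.71 with nefazodone, and 9.0, 8.73 and 9.06 in control. It was 4.06-fold higher with nefazodone, and the atazanavir arrays did not differ from control at the threshold (−0.17, adjusted p = 0.421). SLC3A2, the shared heavy chain of several amino acid exchangers, was 2.81-fold higher with nefazodone, and SLC1A4, a neutral amino acid carrier, 2.96-fold higher, with other probe sets at −1.60, −1.39, −0.89 and, at background, −0.14. ASNS, asparagine synthetase, stood near the same level with both, at 11.22, 11.29 and 11.25 with atazanavir and 11.61, 11.76 and 11.75 with nefazodone. It rose over control by 2.27 and 2.72, and the difference between the drugs was small (−0.45 ± 0.076, adjusted p = 3.67e-05).

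The C/EBP-ATF response element, searched as TGATGNAA, was found in 3 of 17 promoters of the integrated stress response list (17.6%), 2 of 14 of the synthetases (14.3%), 1 of 15 of the amino acid supply list (6.67%) and 2.31% of all. The stretches below hold it in capitals, on either strand. They lie at chr1:212565186-212565253 (ATF3, plus strand), chr19:48755440-48755507 (FGF21, plus), chr7:97872439-97872506 (ASNS, minus) and chr16:70289656-70289723 (AARS1, the alanyl synthetase, minus). The first 2 genes and AARS1 differed by −2.47, −2.22 and −1.14, and ASNS by −0.45. These genes were picked as examples from genes whose values are described, so the range holds for them alone.
ATF3: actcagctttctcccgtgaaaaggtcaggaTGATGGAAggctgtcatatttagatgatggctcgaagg
FGF21: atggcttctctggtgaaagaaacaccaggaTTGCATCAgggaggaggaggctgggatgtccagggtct
ASNS: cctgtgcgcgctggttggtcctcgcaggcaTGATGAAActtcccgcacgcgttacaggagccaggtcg
AARS1: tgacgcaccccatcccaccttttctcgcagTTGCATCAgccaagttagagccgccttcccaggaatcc

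Most chaperones and degradation factors of the endoplasmic reticulum were higher with nefazodone than with atazanavir. Of 30 measured genes, 22 (73.3%) were higher with nefazodone and 1, CRELD2, was higher with atazanavir, with a median of −0.55. With nefazodone 18 rose and 4 fell against control, and with atazanavir 3 rose, 13 fell and 14 did not pass. HSPA5, the central chaperone BiP, read 12.20, 12.12 and 12.17 with atazanavir and 13.58, 13.63 and 13.49 with nefazodone, and 11.99, 12.31 and 12.22 in control. The atazanavir arrays lay within the range of control and the nefazodone arrays above both, 2.65-fold over atazanavir (−1.40 ± 0.079, adjusted p = 3.69e-12). DNAJB9, a cochaperone of BiP, differed by 4.79-fold (−2.26 ± 0.1), with a mean of 12.21 with nefazodone against 9.95 with atazanavir and 10.17 in control. SEC24D, a coat protein of transport vesicles, and ERO1B, an oxidase for disulfide formation, were 2.8- and 2.73-fold higher with nefazodone. ERO1B changed by −1.08 against control with atazanavir and by 0.37 with nefazodone.

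Interferon-stimulated genes were raised with nefazodone. Of 18 measured, 16 (88.9%) were higher with nefazodone, 1, GBP1, was higher with atazanavir and GBP2 did not pass, with a median of −1.58. Against control 15 rose and 1 fell with nefazodone, whereas with atazanavir 1 rose, 1 fell and 16 did not pass. MX1, a GTPase that traps viral particles, read 5.92, 5.86 and 5.87 with atazanavir and 8.10, 7.71 and 9.37 with nefazodone, and 5.43, 5.42 and 5.53 in control. All nefazodone arrays were above all others, but they spread over more than 1 log2 unit, with the third array highest. The drugs differed by 5.7-fold (−2.51 ± 0.34, adjusted p = 2.24e-06). OAS1, which senses double-stranded RNA, read 4.77, 4.69 and 4.62 with atazanavir and 7.07, 6.39 and 8.11 with nefazodone, against 4.89, 5.02 and 5.09 in control. It showed the same wide spread with the third nefazodone array highest, and a 5.63-fold difference (adjusted p = 1.56e-06). IFI27, a mitochondrial interferon target, was 3.93-fold higher with nefazodone, and IFI44L, of less known function, 5.69-fold (adjusted p = 2.74e-06 and 0.000455). With the third nefazodone array left out, the differences of MX1, OAS1, IFI27 and IFI44L were −2.02, −2.03, −1.66 and −1.66, and all passed the test.

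The interferon-stimulated response element, searched on both strands as TTTC, any 2 bases, then TTTC, was found in 8 of 13 promoters of this list (61.5%) and in 2.48% of all. The stretches of IFI44L (chr1:78620254-78620414, plus strand) and IFI27 (chr14:94110598-94110680, plus strand) each hold 2 matches, in capitals. In IFI44L the 2 matches lie in copies of the same repeated stretch.
IFI44L: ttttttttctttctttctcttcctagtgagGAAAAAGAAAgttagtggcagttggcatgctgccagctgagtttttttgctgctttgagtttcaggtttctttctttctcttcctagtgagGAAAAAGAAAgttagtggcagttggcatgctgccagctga
IFI27: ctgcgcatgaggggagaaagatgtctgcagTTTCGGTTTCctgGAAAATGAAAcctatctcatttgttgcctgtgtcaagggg

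Autophagy and lysosome genes were more often higher with nefazodone. Of 32 measured, 18 (56.2%) were higher with nefazodone and 7 with atazanavir, with a median of −0.32. LAMP3, a membrane protein of lysosomes and endosomes, read 6.33, 6.24 and 6.40 with atazanavir and 10.40, 10.27 and 10.35 with nefazodone, and 5.03, 4.66 and 4.92 in control. The 3 groups did not overlap, and nefazodone stood 16.2-fold over atazanavir (−4.02 ± 0.14, adjusted p = 3.07e-15). WIPI1, which acts on the forming autophagosome, and MAP1LC3B, the lipid-bound marker LC3B, were 5.01- and 2.8-fold higher with nefazodone. GPNMB, a lysosomal glycoprotein, was 5.23-fold higher, and its mean with atazanavir (5.22 ± 0.31, SD) did not pass the test against control (5.77 ± 0.37). ATP6V0D2, a subunit of the proton pump that acidifies lysosomes, read 4.53, 4.56 and 4.59 with atazanavir and 9.09, 9.28 and 7.99 with nefazodone, and 4.41, 4.50 and 4.74 in control. Nefazodone stood 18.8-fold over atazanavir (adjusted p = 2.28e-11), while the atazanavir and control arrays covered nearly the same low range.

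**Figure D3:**
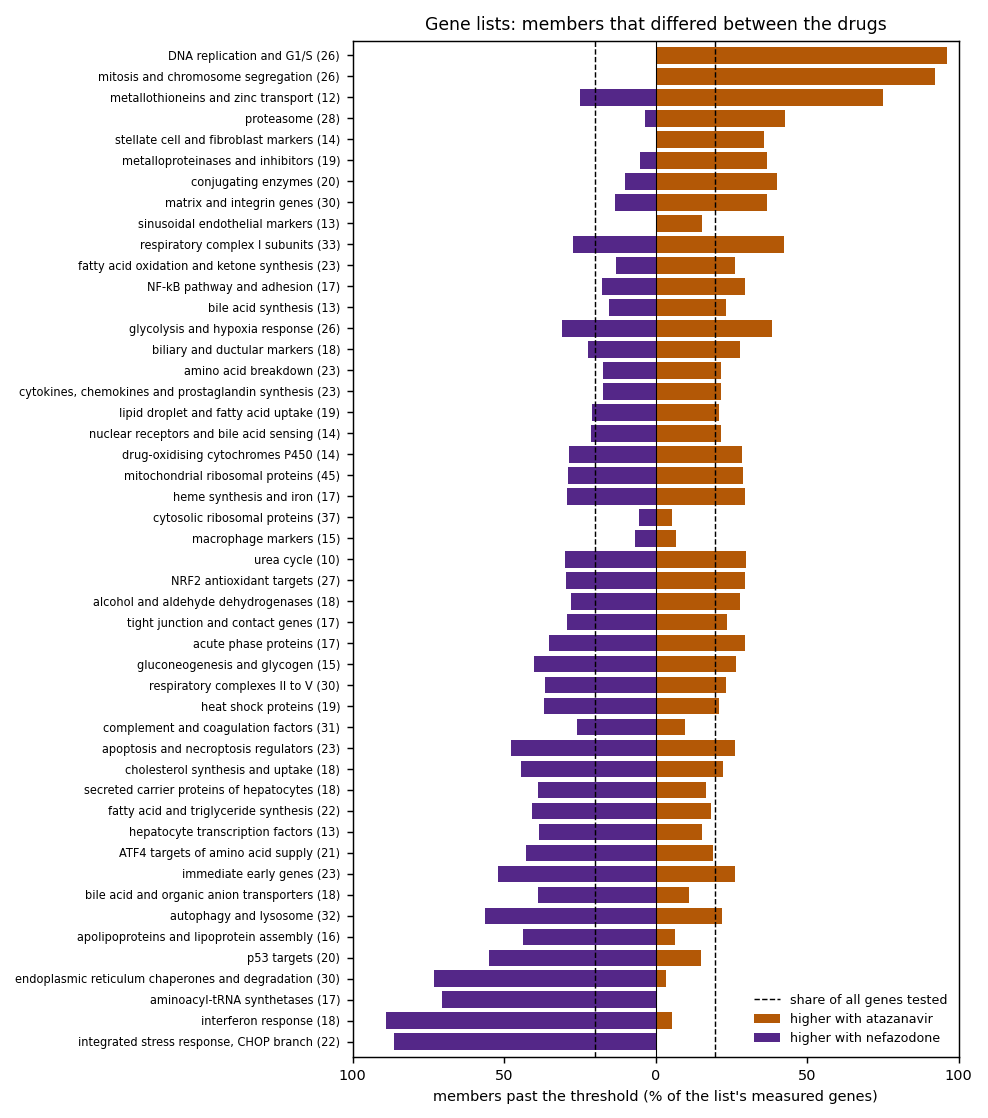
Share of the measured genes of each of 48 lists that were higher with atazanavir (bars to the right) or with nefazodone (bars to the left), in percent, at an adjusted p under 0.05, with the number of measured genes in brackets. Dashed lines mark the share of all genes tested, 19.7% and 20.1%. Mitosis and DNA replication stand at one end, and the integrated stress response, interferon response and aminoacyl-tRNA synthetases at the other.

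Plasma proteins made by hepatocytes fell with both drugs, and members differed in which drug left less RNA. Of 31 complement and coagulation factors, 28 fell against control with each drug, by medians of −3.18 with atazanavir and −2.24 with nefazodone. Between the drugs, 8 were higher with nefazodone and 3 with atazanavir (PROS1, SERPIND1 and CPB2), near the background of 20.1% and below that of 19.7%. SERPINC1, antithrombin, read 6.83, 6.99 and 7.14 with atazanavir and 10.45, 10.33 and 10.97 with nefazodone, against 11.78, 11.54 and 12.05 in control. The atazanavir arrays were lowest by a wide margin, 12.1-fold under nefazodone (−3.59 ± 0.32, adjusted p = 5.76e-09). F2, prothrombin, and F12, which starts the contact pathway, were 4.61- and 3.76-fold higher with nefazodone. CPB2, a carboxypeptidase that slows clot lysis, went the other way and was 4.1-fold higher with atazanavir (2.04, adjusted p = 0.0015; 2.73 without the third nefazodone array).

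Of 18 secreted carrier proteins, 18 fell against control with atazanavir and 17 with nefazodone, and 7 were higher with nefazodone and 3 with atazanavir (SERPINA6, SERPINA7 and SELENOP). AMBP, the precursor of bikunin, and AZGP1, a zinc-binding glycoprotein, were 3.53- and 3.47-fold higher with nefazodone. TF, transferrin, was 3.13-fold higher with nefazodone, a log2 difference of −1.65, and a second bright probe set gave −1.92. Its 2 dimmest ones gave 0.29 and 0.22. SERPINA7, which carries thyroid hormone, was 7.5-fold higher with atazanavir, at means of 7.52 with atazanavir, 4.61 with nefazodone and 11.84 in control. ALB, albumin, stayed near the top of the range, at 13.56, 13.44 and 13.75 with atazanavir and 13.73, 13.77 and 13.91 with nefazodone, against 14.37, 14.35 and 14.36 in control. Its difference between the drugs did not pass (−0.22 ± 0.098, adjusted p = 0.0766), and turned to 0.67 when all its probe sets were averaged (limma, adjusted p = 0.000457), of which 1 gave 4.24 and the others −0.90 and −0.44.

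Lipoprotein genes were mixed, with large differences in APOA2 and APOE. Of 16 measured, 7 were higher with nefazodone, 1, APOB, was higher with atazanavir and 8 did not pass, with a median of −0.24. The 7 became 4 without the third nefazodone array. APOA2, a structural protein of high-density lipoprotein, read 4.12, 4.08 and 4.69 with atazanavir and 9.35, 9.25 and 9.52 with nefazodone, and 8.99, 9.15 and 9.82 in control. The atazanavir arrays lay in or near the dim range, and the nefazodone and control arrays did not differ at the threshold (0.05, adjusted p = 0.936), a 33.9-fold difference between the drugs (−5.08 ± 0.39, adjusted p = 4.46e-10). APOE, which takes remnants to receptors, read 8.44, 8.26 and 8.93 with atazanavir and 11.42, 11.18 and 11.91 with nefazodone, against 12.12, 11.83 and 12.35 in control. It was 7.8-fold higher with nefazodone, whose fall against control did not pass (adjusted p = 0.0556). APOA1, the main protein of high-density lipoprotein, fell with both, by −3.89 with atazanavir and −2.45 with nefazodone. The drugs differed by −1.44 ± 0.2, by −1.43 on a second probe set and by −0.36 on the dimmest.

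Among 17 acute phase proteins, 14 fell and 1 rose with atazanavir and 15 fell and 1 rose with nefazodone. Between the drugs 5 were higher with atazanavir (FGA, FGB, FGG, LBP and CP), which became 2 without the third atazanavir array, 3 without the first nefazodone array and 2 without the second nefazodone array, and 6 with nefazodone. CP, the copper carrier ceruloplasmin, was 4.77-fold higher with atazanavir. LCN2, lipocalin 2, which binds bacterial iron carriers, was 4.21-fold higher with nefazodone, at means of 8.66, 6.58 with atazanavir and 6.18 in control. CFB, complement factor B, and HPX, the heme carrier hemopexin, were 2.83- and 2.68-fold higher with nefazodone, with both drugs under control.

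Drug-oxidising enzymes differed in both directions. Of 14 cytochromes P450 and partners, 4 were higher with atazanavir (CYP1A1, CYP1A2, CYP1B1 and CYB5A) and 4 with nefazodone (CYP3A4, CYP3A5, CYP3A43 and POR). Each is 28.6% of the list, against 19.7% and 20.1% of all genes. At 2-fold or more, 1 was higher with atazanavir and 2 with nefazodone. CYP3A4, the main drug-oxidising enzyme of adult liver, read 6.06, 5.92 and 5.82 with atazanavir and 7.92, 7.74 and 9.87 with nefazodone, against 10.31, 9.91 and 10.30 in control. It was 5.95-fold higher with nefazodone (−2.57 ± 0.38, adjusted p = 6.76e-06) and under control with both. The difference was −1.89 without the third nefazodone array, the highest of its group, and the other probe sets gave −2.36, −0.95 and, nearer background, −0.61 and −0.09. CYP3A5, its polymorphic relative, fell with atazanavir (−1.51) and rose with nefazodone (0.79). Probe sets of these close relatives can share signal, and that was not tested. CYP1A1, the classic target of the aryl hydrocarbon receptor, read 7.27, 7.35 and 6.70 with atazanavir and 4.68, 4.75 and 4.77 with nefazodone, and 5.29, 4.63 and 4.53 in control. It was 5.2-fold higher with atazanavir (2.38 ± 0.23, adjusted p = 1.67e-08), and the nefazodone and control arrays overlapped. CYP2B6 fell with both drugs, by −2.58 and −2.31, and the difference between them did not pass (−0.27 ± 0.19).

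Conjugating enzymes fell with both drugs, 16 of 20 with atazanavir and 17 with nefazodone. Between the drugs, 8 (40%) were higher with atazanavir and 2 with nefazodone (UGT1A6 and CES1, an esterase kept in this list that does not itself conjugate). UGT2B15, which glucuronidates steroids and drugs, read 8.86, 8.43 and 9.31 with atazanavir and 4.04, 4.71 and 5.59 with nefazodone, against 12.14, 11.97 and 12.17 in control. Nefazodone left the lowest values, 17-fold under atazanavir (4.09 ± 0.39, adjusted p = 1.34e-08). A second probe set gave 3.83 and a dim one −0.05. UGT2A3, a relative of it, and GSTA4, which detoxifies lipid aldehydes, were 3.11- and 3-fold higher with atazanavir. SULT2A1, which sulfates bile acids and steroids, had means of 6.23 ± 1 (SD, n = 3) with atazanavir and 4.31 ± 1.2 with nefazodone, with overlapping arrays and an adjusted p of 0.00397. Its difference of 1.93 was 2.61 without the third nefazodone array. UGT1A1, the bilirubin enzyme, was in the dim range in every group.

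Bile acid synthesis fell with both drugs, 12 of 13 genes with atazanavir and 11 with nefazodone. CYP7A1, the rate-limiting enzyme of the classical pathway, read 2.20, 2.00 and 2.73 with atazanavir and 2.16, 1.95 and 1.88 with nefazodone, against 10.16, 9.49 and 10.36 in control. Both drugs brought it to background, so the difference between them (0.31 ± 0.53, adjusted p = 0.717) has no measurable size. Between the drugs, 3 of the 13 (23.1%) were higher with atazanavir, 2 (15.4%), HSD17B4 among them, were higher with nefazodone and 8 did not pass. These shares are near the background of 19.7% and 20.1%. The 3 were CYP7B1 and CYP27A1, of the alternative pathway, at 3.32- and 1.31-fold, and SLC27A2, which activates bile acids and fatty acids, at 2.27-fold.

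Of 18 bile acid and organic anion transporters, 7 (38.9%) were higher with nefazodone and 2 (SLCO1B3 and SLCO2B1) with atazanavir, with a median of −0.29. ABCB4, which moves phosphatidylcholine into bile, read 6.07, 5.85 and 6.00 with atazanavir and 8.35, 8.22 and 7.96 with nefazodone, and 7.81, 7.94 and 8.40 in control. The nefazodone and control arrays covered the same range and the atazanavir arrays lay 4.6-fold under nefazodone (−2.20 ± 0.21, adjusted p = 1.39e-08), while a dim other probe set gave −0.61. ABCB1, the efflux pump P-glycoprotein, fell with atazanavir (−1.24) and rose with nefazodone (0.74). SLCO1B1, a sinusoidal uptake carrier, was 4.4-fold higher with nefazodone and fell with both. ABCG2, another efflux pump, rose with both, by 1.27 and 2.57. ABCC2, a canalicular pump of conjugates, fell with atazanavir (−1.32) and did not pass with nefazodone (−0.16, adjusted p = 0.272). SLC10A1, the sinusoidal bile acid carrier, fell by −3.05 and −3.21 and did not differ at the threshold between the drugs (adjusted p = 0.652). ABCB11, the bile salt export pump, was in the dim range in all groups, so no difference could be seen (adjusted p = 0.728).

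Nuclear receptors and hepatocyte transcription factors differed in single members, with 3 and 3 of 14 receptors and 2 and 5 of 13 factors higher with atazanavir and with nefazodone. NR5A2, a receptor that drives bile acid synthesis genes, and VDR, the vitamin D receptor, were 2.17- and 2.08-fold higher with atazanavir, and PPARA, the receptor for fatty acids, 1.37-fold higher with nefazodone. Other probe sets of VDR gave 1.12, 0.44 and −0.04, and those of NR5A2, all in the dim range, 0.98, 0.33 and 0.06. NR0B2, the repressor SHP, did not pass (adjusted p = 0.573). CREB3L3, a liver factor of lipid metabolism, read 6.33, 6.08 and 6.32 with atazanavir and 3.83, 4.09 and 4.29 with nefazodone, against 5.63, 5.25 and 5.65 in control. It lay above control with atazanavir and below it with nefazodone, 4.51-fold apart (adjusted p = 7.35e-08). PROX1, a factor of hepatocyte identity, was 3.27-fold higher with nefazodone, with other probe sets at −1.59, −1.34 and, on the dimmest, −0.03. FOXA1 and FOXA2, pioneer factors of liver, moved apart, by 1.27 and −0.66.

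**Figure D4:**
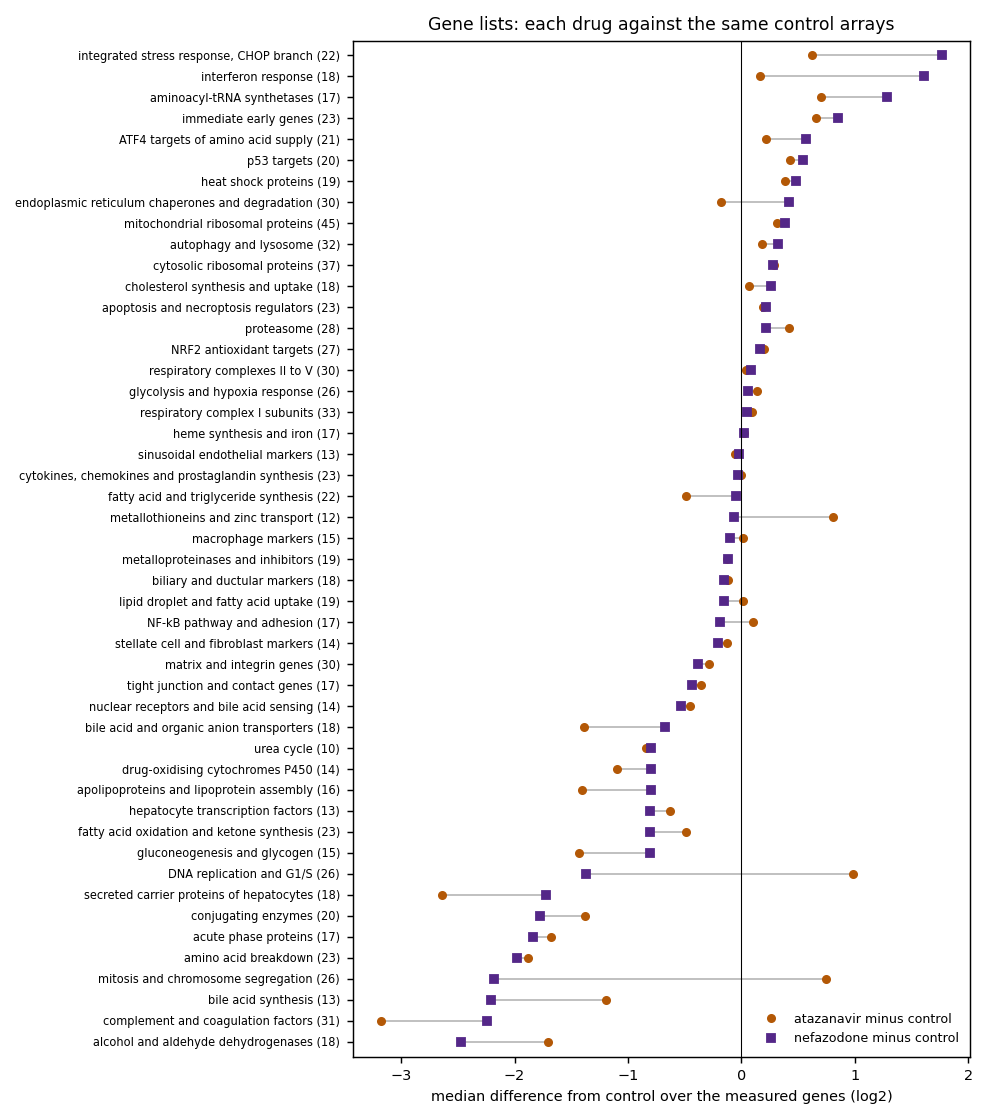
Median log2 difference from the control arrays (horizontal axis) over the measured genes of each of 48 lists, for atazanavir (circles) and nefazodone (squares). Both drugs share the 3 control arrays. The markers lie on opposite sides of 0 for mitosis (0.75 and −2.18) and DNA replication (0.98 and −1.37), and both lie far left for complement and coagulation factors (−3.18 and −2.24).

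Glucose handling differed at the transporter. SLC2A2, the low-affinity hepatocyte transporter GLUT2, read 6.00, 5.73 and 6.22 with atazanavir and 2.53, 2.28 and 2.94 with nefazodone, against 9.03, 8.98 and 9.34 in control. All 3 groups were separate, with nefazodone in the dim range and 10.5-fold under atazanavir (3.40 ± 0.22, adjusted p = 2.27e-11). SLC2A1, the widespread transporter GLUT1, and HK2, the hexokinase of proliferating cells, rose with nefazodone (1.25 and 1.45) and did not pass with atazanavir (0.15 and 0.14). Over 26 genes of glycolysis and hypoxia, 10 were higher with atazanavir and 8 with nefazodone. NDRG1, a stress and hypoxia gene, was 3.32-fold higher with nefazodone and EGLN3, an oxygen-sensing hydroxylase, 2.69-fold higher with atazanavir. Among 15 genes of gluconeogenesis and glycogen, 4 were higher with atazanavir (SLC2A2, GYS2, PYGL and SLC37A4) and 6 with nefazodone. PPP1R3B and PPP1R3C, which target phosphatase to glycogen, were 4.34- and 2.15-fold higher with nefazodone, and PCK2, the mitochondrial phosphoenolpyruvate carboxykinase, 2.59-fold. Other probe sets of PPP1R3B gave −2.10 and, at background, −0.04.

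Fatty acid genes included single large differences in lists that were otherwise mixed. PDK4, which turns pyruvate away from oxidation, read 12.07, 12.20 and 11.92 with atazanavir and 9.40, 9.74 and 8.65 with nefazodone, and 9.84, 9.39 and 9.86 in control. The atazanavir arrays stood above both other groups, 6.96-fold over nefazodone (2.80 ± 0.22, adjusted p = 8.57e-10). ANGPTL4, a lipase inhibitor, was 4.12-fold higher with atazanavir, CROT, which moves acyl chains out of peroxisomes, 2.92-fold and SLC25A20, the mitochondrial acylcarnitine carrier, 2.67-fold. CPT1A, the gate of mitochondrial fatty acid oxidation, differed by 0.49 ± 0.086, a value that turned to −0.01 when averaged with its other probe sets (0.54, −0.35 and −0.74). Over 23 genes of fatty acid oxidation, 6 were higher with atazanavir and 3 (ACADS, ACADVL and ECI1) with nefazodone. ELOVL2, which lengthens polyunsaturated fatty acids, was 7.54-fold higher with atazanavir, at means of 8.51 with atazanavir, 5.60 with nefazodone and 8.64 in control. Its dimmer probe set gave 0.80.

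In lipid synthesis, 9 of 22 fatty acid and triglyceride genes and 8 of 18 cholesterol genes were higher with nefazodone, and 4 and 4 with atazanavir. MLXIPL, the carbohydrate-responsive factor ChREBP, ACACB, a carboxylase that makes malonyl-CoA, and SCD, the stearoyl-CoA desaturase, were 2.6-, 2.1- and 1.8-fold higher with nefazodone. Each of the 3 fell against control with atazanavir and did not pass with nefazodone (adjusted p = 0.324, 0.183 and 0.656). Other probe sets of SCD gave larger differences between the drugs, −1.19, −1.98 and −2.23. Those of ACACB gave −1.07 to, at background, 0. SC5D, HMGCS1 and FDPS, enzymes of the cholesterol pathway, and STARD4, a cholesterol carrier, were 2.1-, 1.95-, 1.8- and 1.82-fold higher with nefazodone. LPL, lipoprotein lipase, was 3.29-fold higher with nefazodone, and CIDEC, a droplet fusion protein, 2.11-fold higher with atazanavir. PLIN2, the coat protein of lipid droplets, rose with both drugs, by 1.42 with atazanavir and 2.04 with nefazodone, and the difference was small (−0.62 ± 0.091, adjusted p = 6.79e-06).

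The respiratory chain showed small differences in both directions. Of 33 complex I subunits, 14 were higher with atazanavir and 9 with nefazodone, and only 1 differed 2-fold, NDUFB3, at 2.32-fold. The 14 became 8 without the first atazanavir array, 7 without the first nefazodone array, 6 without the second nefazodone array, 5 in a fit of the 6 arrays alone and 6 after median centring. Of 30 subunits of complexes II to V, 7 and 11 passed, none at 2-fold, and the 11 became 7 without the third atazanavir array and 6 without the third nefazodone array. Mitochondrial ribosomal proteins split 13 and 13 of 45. Cytosolic ribosomal proteins gave 2 and 2 of 37, while 33 rose with atazanavir and 32 with nefazodone against control, by medians of 0.29 and 0.28. The 2 higher with nefazodone became 8 after median centring. Proteasome subunits were higher with atazanavir for 12 of 28 (42.9%) and lower for 1, PSMD8, by a median of 0.19, and 25 rose against control with atazanavir and 16 with nefazodone. PSMD1 and PSMD2, scaffold subunits of the regulatory cap, were 1.92- and 1.83-fold higher with atazanavir.

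Amino acid and alcohol metabolism fell with both drugs, and shares between them were mixed. GLUL, glutamine synthetase, was 2.01-fold higher with atazanavir on its brightest probe set, with others at 1.36, 0.36 and 0.03. ASL, of the urea cycle, was 1.95-fold higher with nefazodone. GOT1, aspartate aminotransferase, rose with nefazodone (1.82) and less with atazanavir (0.38), a 2.72-fold difference. ARG2, the mitochondrial arginase, read 6.36, 5.96 and 6.35 with atazanavir and 10.02, 10.04 and 10.13 with nefazodone, and 5.31, 4.98 and 4.89 in control. It was 14.4-fold higher with nefazodone (−3.84 ± 0.12, adjusted p = 6.85e-16), and its dimmer probe set agreed in sign at −1.23. KMO and GLDC, which break down tryptophan metabolites and glycine, were 3.3- and 2.37-fold higher with atazanavir. ALDH3A1, an aldehyde dehydrogenase, read 9.26, 8.89 and 8.92 with atazanavir and 5.32, 5.15 and 5.22 with nefazodone, against 8.53, 8.47 and 8.24 in control, a 13.9-fold excess with atazanavir (adjusted p = 6.34e-15). ALDH7A1, of lysine breakdown, was 2.73-fold higher with atazanavir, and ADH6, an alcohol dehydrogenase, 2.4-fold higher with nefazodone.

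Cytokines split by gene. IL6, the acute phase inducer, read 6.14, 6.69 and 6.11 with atazanavir and 9.41, 9.14 and 8.78 with nefazodone, and 4.63, 4.85 and 4.96 in control. The nefazodone arrays were highest, 6.94-fold over atazanavir (−2.79 ± 0.24, adjusted p = 2.15e-09), and both drugs stood above control. CXCL8, a neutrophil chemokine, read 9.41, 9.77 and 9.33 with atazanavir and 7.17, 6.82 and 5.55 with nefazodone, against 7.96, 8.16 and 8.36 in control. It went the other way, with atazanavir above control and nefazodone below it, 7.96-fold apart (2.99 ± 0.28, adjusted p = 8.56e-09). CXCL3 and CCL2, chemokines of neutrophils and monocytes, were 3.56- and 2.83-fold higher with atazanavir, and CXCL2 3.02-fold, although its other probe sets gave 0.19 and 0.08. Of 23 genes of this list, 5 were higher with atazanavir, all chemokines (the fifth was CXCL1), and 4 with nefazodone (IL6, IL32, LIF and CSF1). These shares, 21.7% and 17.4%, are near those of all genes, 19.7% and 20.1%. In the NF-kB list, 5 of 17 were higher with atazanavir, and NFKBIA, its feedback inhibitor, was 2.58-fold, CD83, a surface protein, 2.51-fold and TNFAIP3, a deubiquitinase that limits the pathway, 2.37-fold higher. NFKB2, ICAM1 and IRAK2 were higher with nefazodone. The shares of this list were 29.4% with atazanavir and 17.6% with nefazodone, beside the same background.

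Of 23 immediate early genes, 12 (52.2%) were higher with nefazodone and 6 with atazanavir. DUSP4, a phosphatase that turns off MAP kinases, read 5.64, 5.83 and 5.64 with atazanavir and 8.88, 9.0 and 8.99 with nefazodone, and 4.83, 4.91 and 4.80 in control. The nefazodone arrays lay far above the others, 9.54-fold over atazanavir (−3.25 ± 0.14, adjusted p = 3.72e-14). DUSP5 and DUSP6, of the same family, were 7.19- and 2.7-fold higher with nefazodone. Among 20 p53 targets, 11 (55%) were higher with nefazodone and 3 (BAX, GADD45B and XPC) with atazanavir, while 14 rose against control with each drug. CDKN1A, the cell cycle inhibitor p21, read 10.89, 10.84 and 10.83 with atazanavir and 11.45, 11.39 and 11.36 with nefazodone, against 10.63, 10.44 and 10.54 in control. It rose with both and stood 1.46-fold higher with nefazodone (−0.55 ± 0.065, adjusted p = 3.91e-07). GADD45A, a growth arrest gene, and TNFRSF10B, the death receptor DR5, were 2.5- and 2.4-fold higher with nefazodone. MLKL, the effector of necroptosis, was 2.1-fold higher with atazanavir, and BCL2, an apoptosis inhibitor, 2.92-fold higher with nefazodone, with dimmer probe sets at −0.38 to −0.48.

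Metallothioneins, the small proteins that bind zinc and copper, were higher with atazanavir. In this list of 12 with zinc carriers, 9 (75%) were higher with atazanavir and 3 with nefazodone (SLC30A1, SLC39A14 and MTF1), with a median of 0.96. MT1E read 12.34, 12.37 and 12.28 with atazanavir and 10.90, 10.81 and 10.44 with nefazodone, and 11.41, 11.51 and 11.16 in control. It lay above control with atazanavir and below it with nefazodone, 3.05-fold apart (adjusted p = 4.84e-10). MT1F and MT1X were 2.53- and 2.16-fold higher with atazanavir, and their sequences are so alike that probe sets can share signal. SLC39A10, a zinc importer, was 2.56-fold higher with atazanavir. The metal response element, searched as TGCNCNC in the same way as the other elements, was found in 4 of 7 promoters of this list (57.1%). Among all promoters the share was 53.7%, so the presence of letters this common cannot set a list of 7 promoters apart. MT1H, MT2A and MT1X each held repeated matches, and the number of matches per promoter was not compared with that of all genes. NRF2 antioxidant targets split 8 and 8 of 27. SRXN1, sulfiredoxin, was 2.93-fold higher with nefazodone, OSGIN1, a stress inhibitor of growth, 2.52-fold, and HMOX1, heme oxygenase 1, did not pass (0.27 ± 0.14, adjusted p = 0.15). Heat shock proteins split 4 and 7 of 19, with HSPB1, a small cytosolic chaperone, 2.21-fold higher with atazanavir and HSPA9, the mitochondrial chaperone, 1.96-fold higher with nefazodone. CPOX and ALAD, enzymes of heme synthesis, were 3.27- and 3.21-fold higher with atazanavir, and another probe set of ALAD gave −0.05.

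Matrix genes differed in single members. Of 30 measured, 11 (36.7%) were higher with atazanavir, 4 (COL18A1, FN1, CCN1 and TGFB2) were higher with nefazodone and 15 did not pass, with a median of 0.03. COL3A1, a fibrillar collagen, read 7.29, 4.93 and 7.54 with atazanavir and 3.05, 2.39 and 3.54 with nefazodone, against 10.15, 9.01 and 9.97 in control. All 3 groups were separate, with nefazodone in the dim range and the second atazanavir array far below the other two. The drugs differed by 3.60 ± 0.53 (adjusted p = 7.42e-06), or 4.42 without that array, and by 2.52 and 1.78 on other probe sets of the gene. Its 2 dimmest ones gave −0.14 and 0.43. SPARC, LUM and DCN, matrix proteins of connective tissue, were 4.5-, 2.98- and 2.78-fold higher with atazanavir. COL3A1, LUM and DCN are also in the list of stellate cell and fibroblast markers, of which 5 of 14 were higher with atazanavir and none with nefazodone. The mean level of these 14 markers was 5.57 to 5.96 with atazanavir, 5.14 to 5.32 with nefazodone and 6.05 to 6.26 in control, with 4, 6 and 4 of them in the dim range, and their part in the matrix values was not tested. Of 19 metalloproteinases and inhibitors, 7 were higher with atazanavir and 1 (MMP13) with nefazodone. MMP1 and MMP3, which cleave collagen and other matrix, rose with both drugs, by 3.35 and 1.98 with atazanavir and by 1.15 and 0.84 with nefazodone.

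Epithelial genes differed in single members. SPP1, osteopontin, read 8.68, 8.17 and 8.62 with atazanavir and 11.28, 11.28 and 11.86 with nefazodone, and 8.85, 9.17 and 8.65 in control. It was 7.91-fold higher with nefazodone (−2.98 ± 0.18, adjusted p = 6.71e-12), with a dimmer probe set at −0.80. CD24, a surface glycoprotein, KRT19, a keratin of bile duct cells, and SOX4, a transcription factor, were 4.39-, 2.01- and 2.93-fold higher with atazanavir, and SOX9, a ductular factor, 2.05-fold higher with nefazodone. Biliary and ductular markers in all split 5 and 4 of 18. CDH1 and CDH2, the epithelial and neural cadherins, moved apart, CDH1 4.99-fold higher with nefazodone (−0.73 on a dimmer probe set) and CDH2 3.61-fold higher with atazanavir. OCLN and MARVELD2, proteins of tight junctions, were 3.88- and 2.32-fold higher with nefazodone. Of 15 macrophage markers 11 were in the dim range in each of the 3 groups, and 1 was higher with each drug. KDR, a receptor of vascular growth factor, was 9.18-fold higher with atazanavir and fell with both drugs, while 9 or 10 of the 13 endothelial markers were in the dim range.

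Several of the largest differences lay outside the lists. HDGFL3, a growth factor relative, read 3.66, 3.60 and 3.78 with atazanavir and 10.38, 9.69 and 9.36 with nefazodone, and 4.32, 3.20 and 3.55 in control. The atazanavir and control arrays were in or near the dim range and nefazodone stood 69.9-fold higher, the largest excess with nefazodone (−6.13 ± 0.35, adjusted p = 4.4e-12). Its 7 other probe sets went the same way, from −7.18 to −1.72. C2CD4A, a nuclear calcium-binding domain protein, read 4.07, 4.22 and 4.35 with atazanavir and 9.76, 9.49 and 9.32 with nefazodone, against 3.90, 3.96 and 3.55 in control. It was 39.8-fold higher with nefazodone, and KCNMB3, a potassium channel subunit, 30.8-fold (adjusted p = 7.57e-16 and 5.96e-16). FRY, a scaffold protein of cell shape, fell with atazanavir (−2.11) and rose with nefazodone (1.78). The drugs differed by −3.89, and by −2.31, −2.22 and, on a dim one, −0.62 on its other probe sets. GAS1, a growth arrest protein, rose with atazanavir (3.03) and fell with nefazodone (−1.97), 32-fold apart, but its 2 other probe sets gave 0.19 and 0.15. PRKAR2B, a regulatory subunit of protein kinase A, was 23.4-fold higher with atazanavir, falling with nefazodone by −5.26.

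With the mix added, on 6 other arrays, most of the larger differences between the drugs were seen again. Of the 1051 genes at least 2-fold higher with atazanavir, 98.5% passed in the same direction with the mix at any size. At least 2-fold in both settings were 796 genes, 75.7% of these 1051 and 64.3% of the 1238 with the mix. Of the 798 higher with nefazodone, 91.4% passed at any size, and 524 were at least 2-fold in both, 65.7% of these 798 and 62.2% of the 842 with the mix. With the mix 8623 genes (43.6%) differed between the drugs. The drug difference itself changed with the mix for 2209 genes (11.2%) in limma's interaction test, upward for 1132 (5.72%) and downward for 1077 (5.45%). APOA2 differed by −5.08 without the mix and −1.12 with it (adjusted p of the change = 9.75e-05), and CYP1A1 turned from 2.38 to −1.76 (adjusted p = 1.07e-07).

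**Figure D5:**
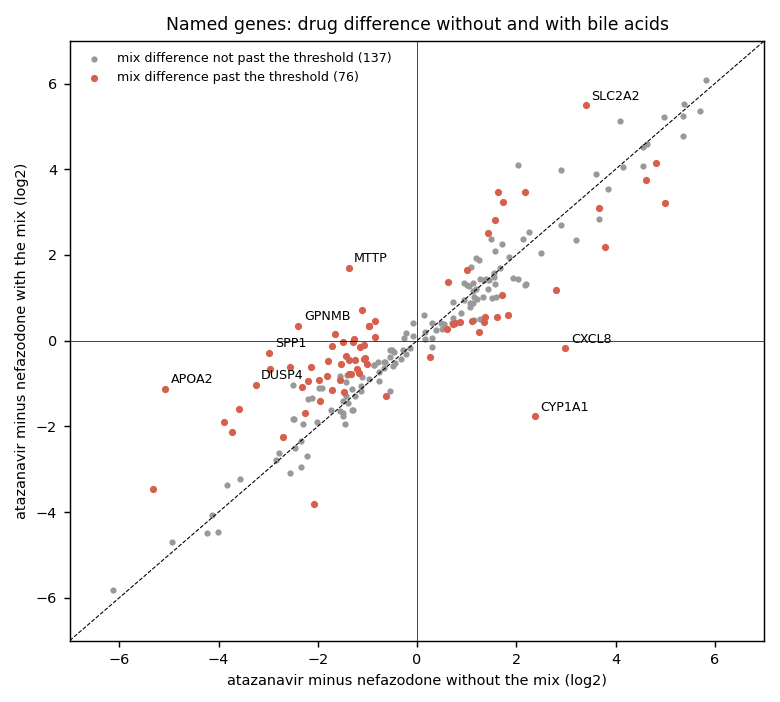
Atazanavir minus nefazodone (log2) without the mix (horizontal axis) and with it (vertical axis) for the 213 genes of the naming rule, 1 point each. The dashed line marks equal differences, and red points are genes whose drug difference changed with the mix at an adjusted p under 0.05, among them CYP1A1 (2.38 without and −1.76 with the mix).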

How the data were processed

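The authors deposited log2 expression values per probe set. Per the submitters' processing notes, RMA (robust multichip averaging) made them, in a version not given in the sources used here. RMA corrects background, quantile-normalises arrays and summarises probes, so shifts shared by most genes are removed. Of 54675 probe sets, 41091 carried 1 gene symbol in the platform annotation, 1801 several, 11721 none and 62 were controls. Each of 19775 genes was represented by its brightest named probe set over the 24 HepaRG arrays. No filter was set on dim genes.

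Group means of all 8 HepaRG groups were fitted in R 4.3.3 with limma 3.58.1 (lmFit, eBayes, 2-sided, 16 residual degrees of freedom), so that groups shared 1 estimate of the spread, with Benjamini-Hochberg adjustment over all genes. The script was tested on simulated data. Genes are named by a rule: the 12 largest differences in each direction with groups that do not overlap, up to 4 leading members past the threshold in each of 48 lists, and 25 key genes with a named probe set. Not all are printed, and members named beside a count of 5 or fewer were chosen after their values were seen. The lists and members were chosen with earlier results of these data known. Alternatives were the arrays fitted, normalisation, probe set averaging, a filter at log2 5, the variance model, a replicate block and leaving out each array. Promoter sequences are from RefSeq (GRCh38.p14), matched by symbol.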

Additional observations from a re-analysis of the deposited data

Results flagged for a closer look

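The difference between atazanavir and nefazodone itself differed with and without the mix for 68 of the 168 genes described with values, by limma's interaction test over all genes (adjusted p 1.07e-07 to 0.0458). The 4 groups are separate arrays. Each value below is the log2 difference between the drugs with the mix minus that without it, and what these changes come from was not tested.

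The sign of the drug difference turned for 11 genes. The change was −4.13 for CYP1A1, −3.17 for CXCL8, 2.74 for GPNMB, 1.82 for PPP1R3C, 1.80 for TF, 1.31 for ADH6, 1.31 for HMGCS1, 1.30 for SCD, 1.29 for ASL, 0.94 for FDPS and −0.65 for HMOX1. With the mix, CYP1A1 was lower with atazanavir (−1.76), while CXCL8 (−0.17) was nearly level between the drugs.

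Others higher with nefazodone, such as F12, HPX, ABCB4, ABCG2 and CYP3A5, are not among the 68 genes, and LCN2 became more so. Several plasma protein, transporter and liver-specific genes that were higher with nefazodone were less so with the mix. The change was 3.96 for APOA2, 2.29 for APOE, 1.99 for SERPINC1, 1.96 for CYP3A4, 1.59 for PROX1, 1.53 for SLCO1B1, 1.47 for CFB, 1.31 for AZGP1, 1.26 for F2, 1.09 for APOA1, 1.06 for ABCB1, 1.00 for AMBP and 0.99 for ABCC2. The same held for SPP1 (2.70), DUSP4 (2.22), FRY (2.00), C2CD4A (1.85), HK2 (1.27), CDH1 (1.23), BCL2 (1.00), ACACB (0.97), PCK2 (0.92), SC5D (0.64), SOX9 (0.64), MLXIPL (0.59), LPL (0.56), OCLN (0.54), MARVELD2 (0.54) and OSGIN1 (0.57). Among stress genes the change was 0.65 for SLC1A4, 0.57 for DNAJB9, 0.44 for TRIB3, 0.42 for WARS1 and 0.29 for YARS1.

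Genes higher with atazanavir that were less so with the mix were GAS1 (−1.78), ALDH3A1 (−1.62), PDK4 (−1.62), CXCL3 (−1.22), MT1E (−1.06), TNFAIP3 (−1.04), MT1F (−0.90), KIF20A (−0.84), NFKBIA (−0.82), PCLAF (−0.66), MT1X (−0.65), CPOX (−0.65), NUSAP1 (−0.58) and PSMD2 (−0.44). The difference was wider with the mix for SLC2A2 (2.09), UGT2A3 (1.84), CYP7B1 (1.51), SPARC (1.31), LUM (1.23), EGLN3 (1.08) and KRT19 (0.63), all higher with atazanavir, and for LCN2 (−1.75) and PLIN2 (−0.67), both higher with nefazodone.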

How the results depend on the processing

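Counts of genes past the threshold were recomputed under 14 alternatives, and all stayed within 1.5 times the values given. Between the drugs, 7133 to 8334 genes passed over all 14, and 7211 to 7593 with 1 array left out. At 2-fold or more it was 1321, with all probe sets of a gene averaged, to 1966, and 1804 to 1966 with 1 array left out. The change of the drug difference with the mix gave 1534 to 2716 genes. In the fit of the 6 arrays alone, adjusted p (limma) was 4.31e-09 for RRM2, 0.00181 for CYP3A4, 0.00118 for COL3A1 and 0.0332 for SULT2A1. These are higher than in the shared fit, while that of NR5A2 was lower, at 4.3e-05 instead of 0.000179. Of 168 genes described with values, 166 kept their direction and side of the threshold under every alternative that included them. The filter at log2 5 kept 159 of the 168. The exceptions were ALB, which passed with the same sign in 6 alternatives, and CPT1A. Averaging all probe sets moved 35 of the 168 by over 1.5-fold. It turned ALB to 0.67 and CPT1A to −0.01, and among other genes of the naming rule RPS23 to 0.43. UGT1A1, in the dim range and not past the threshold in any setting, ranged from −0.17 to 0.05 with 1 array left out, with its sign turned without nefazodone replicate 1.

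Replicate numbers were not shown to pair the arrays: deviations of same-numbered arrays of the 2 drugs correlated at −0.02, 0.2 and 0.18. Blocking on the replicate number, 8046 genes passed and 1851 at 2-fold or more, amino acid breakdown genes higher with atazanavir went from 5 to 8 and secreted carriers higher with nefazodone from 7 to 11. Counts also moved by over 1.5 times for apoptosis genes higher with atazanavir (6 to 3 without atazanavir replicate 2, without nefazodone replicate 2 and with centring), heme genes (5 to 3 with centring), NRF2 targets (8 to 5 with probe sets averaged) and receptors higher with nefazodone (3 to 5 in the fit of 6 arrays).

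The scanner images were not analysed here, and the table gives no detection call. Levels up to 4.27 are bounds set by background, and folds from or to them depend on that background.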

Other observations

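Some gene lists were divided differently between the drugs once the mix was present. These counts were picked after the values were seen, and the change of a list's count was not tested. Cholesterol genes went from 4 higher with atazanavir and 8 higher with nefazodone to 12 and 2 of 18, and genes of fatty acid and triglyceride synthesis from 4 and 9 to 13 and 3 of 22. Conjugating enzymes went from 8 and 2 to 13 and 0 of 20. Proteasome subunits went the other way, from 12 and 1 to 4 and 6 of 28, and cytosolic ribosomal proteins from 2 and 2 to 0 and 17 of 37. Cell division lists and the integrated stress response gave nearly the same counts. With the mix these were 23 and 0 of 26 mitosis genes, 25 and 0 of 26 replication genes and 0 and 18 of 22 stress response genes. Other stress lists varied. ATF4 targets of amino acid supply went from 4 and 9 to 7 and 6 of 21, and heat shock proteins from 4 and 7 to 3 and 11 of 19. The p53 targets went from 3 and 11 to 0 and 11 of 20, and endoplasmic reticulum chaperones from 1 and 22 to 1 and 24 of 30. The background with the mix was 21.2% of genes higher with atazanavir and 22.4% higher with nefazodone.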
